A study of Homo sapiens with 3 samples.

Results

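Heat shock proteins of the HSP70, HSP110 and small heat shock protein families, the mitochondrial chaperonin and the BAG co-chaperones were described in MDA-MB-231, a line of human triple-negative breast cancer cells long established in culture. Members were all protein-coding genes of the platform annotation whose symbol begins with HSPA, HSPB, HSPD, HSPE, HSPH, HSP90, DNAJ, BAG and a digit, or CCT and a digit. The rule found 22 of the 11916 named protein-coding genes, and 21 of the 22 lay above the floor described below. The members were 11 HSPA genes, HSPH1, HSPD1, the small heat shock genes HSPB1, HSPB3 and HSPB8, BAG1 to BAG5, and HSPBAP1. HSPBAP1 begins with the same letters but encodes a binding partner of HSPB1, not a chaperone of that family. A further 68 human genes with such symbols had no named probe set here. They include all HSP90 genes, all J-proteins (DNAJ), HSPE1, the numbered subunits of the cytosolic chaperonin (CCT), the constitutive HSPA8, the endoplasmic reticulum chaperone HSPA5, and BAG6, and they were not analysed here. The set is therefore largely an account of HSP70-type chaperones and their co-chaperones, with no member of the endoplasmic reticulum.

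Cultures were exposed for 72 h to 10 µM CFX, to 10 µM Mt-CFX, or to 1% DMSO, the solvent that served as vehicle. Ciprofloxacin, named in the title of the series, is an antibiotic of the fluoroquinolone class, while for Mt-CFX only the code name is given. A DMSO content is given for the control alone, so compound and solvent cannot be told apart in a difference from the control. Each group was 1 array (n = 1) of 1 cell line, so there is no replicate error and no test, and every difference below is one between single arrays that could not be set against the spread between repeat cultures.

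Chaperones of the HSP70 family bind exposed hydrophobic stretches of unfolded proteins and release them in a cycle driven by ATP. J-proteins start that cycle, and nucleotide exchange factors such as the HSP110 and BAG proteins end it. Small heat shock proteins hold unfolding proteins without ATP, and the chaperonin HSPD1 folds them inside a closed chamber in the mitochondrial matrix. Transcription of the inducible members is driven by the heat shock factor HSF1, which binds repeats of the letters GAA and TTC in their promoters. Cancer cells often keep these genes highly active.

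Promoter stretches of 5 inducible members are shown first, because HSPA1A and HSPA1B had the widest differences between arrays. Sequences run from 5′ to 3′ and were taken from RefSeq promoter windows on GRCh38.p14, which reach from 250 bases before to 50 bases after each annotated start, and 19 of the 22 members had an entry. Capitals mark a match to units (GAA or TTC) of the heat shock element, 3 units in HSPA6 and only 2 units in the other stretches. HSPA1A and HSPA1B are shown for how alike they are, HSPB1 because its values differed as well, and HSPA6 and HSPB8 because they carry matches and had equal values on all arrays. The HSPA1A stretch lies at chr6:31815387-31815494, that of HSPA1B at chr6:31827583-31827690, that of HSPB1 at chr7:76302461-76302528, that of HSPA6 at chr1:161524436-161524508 and that of HSPB8 at chr12:119178813-119178880, all on the plus strand and all before the start.
HSPA1A: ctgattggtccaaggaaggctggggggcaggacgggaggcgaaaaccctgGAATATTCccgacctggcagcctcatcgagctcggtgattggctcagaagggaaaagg
HSPA1B: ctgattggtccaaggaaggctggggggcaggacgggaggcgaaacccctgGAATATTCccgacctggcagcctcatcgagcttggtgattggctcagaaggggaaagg
HSPB1: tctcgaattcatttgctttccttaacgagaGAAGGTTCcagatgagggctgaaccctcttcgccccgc
HSPA6: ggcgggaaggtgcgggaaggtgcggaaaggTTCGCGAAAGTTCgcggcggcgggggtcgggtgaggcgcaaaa
HSPB8: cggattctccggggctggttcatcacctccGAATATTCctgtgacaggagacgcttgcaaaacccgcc

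The search used 2 units (GAANNTTC or TTCNNGAA, each its own reverse complement) and 3 units (GAA, TTC and GAA, or TTC, GAA and TTC, with any 2 bases between neighbours, which are reverse complements of each other and contain the 2-unit letters). At least 1 match of 2 units lay in 8 of the 18 windows of members above the floor, against 9.59% of the 7341 windows of protein-coding genes above the floor. A match of 3 units lay in the HSPA6 window alone among the members, against 0.327% of all windows. The 300 bases of the HSPA1A and HSPA1B windows were 92.0% identical over 301 aligned positions, and both held GAATATTC, at 106 and 105 bases before the start. HSPA1L, a neighbour of HSPA1A that is read from the opposite strand, shares 241 bases of its window with HSPA1A, and its match is the same 8 bases, chr6:31815437-31815444, so the 8 windows are not independent of each other. The windows of BAG2 and HSPA9, not shown, also held a match of 2 units, that of HSPA9 across the start. HSPA9 was higher with Mt-CFX than in the control, by 0.18 log2. The windows of HSPH1 and BAG3 held no match to these letters. Matches occurred both in genes that differed between arrays and in genes that did not, as the values below show. Among members above the floor, those with a match and equal values on all arrays were HSPA6, HSPB8 and HSPA1L. They lay only 0.09, 0.13 and 0.70 log2 above the floor, and whether a difference could show at such signals was not tested.

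The values were RMA expression values on a log2 scale, 1 probe set per gene, chosen by the highest mean over the arrays. The floor was the median of all probe sets, 3.89 log2, and a gene was kept when its highest array reached it, which left 8868 protein-coding genes. Differences are given in log2, and members were counted at 1.5-fold, with a smaller size of 0.32 log2 and with 2-fold beside it. Exact ties were common, with 45.3% of the 8868 genes at one value on all 3 arrays, and with 7 of the 21 members. Signals of different probe sets depend on their probes, so no member's level is set against another's. Of the line's markers, VIM, AXL, EGFR and CD44 lay between 7.31 and 10.97 log2 on the arrays, PGR lay below the floor at 2.39, and ESR1 lay between 3.81 and 3.92, while GATA3 and FOXA1, whose absence was looked for, stood at 5.52 and 4.36, and CAV1, ERBB2 and CDH1 were not analysed here.

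**Figure D1:**
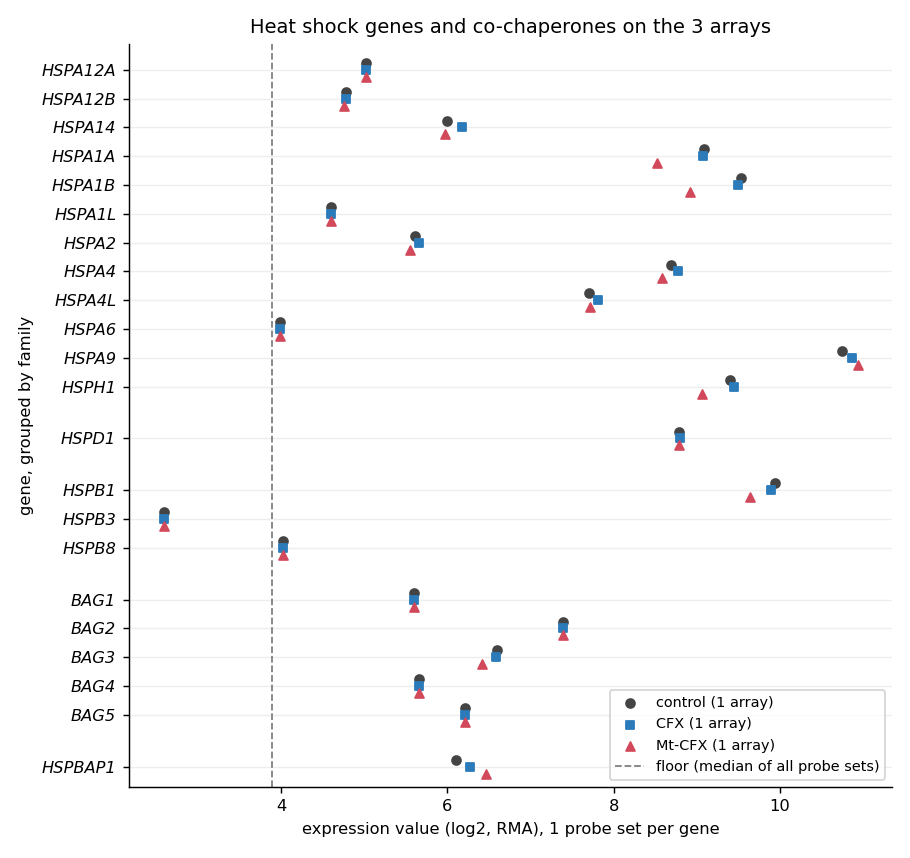
Expression values (log2, RMA) of the 22 members on the control, CFX and Mt-CFX arrays, 1 array each, grouped by family; symbols are set apart vertically for legibility, and the dashed line is the floor of 3.89. HSPA1A, HSPA1B, HSPH1 and HSPB1 have their Mt-CFX symbol to the left of the other arrays, HSPA9 and HSPBAP1 have it to the right, and HSPB3 lies below the floor.

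The members with the lowest values with Mt-CFX against the vehicle control were HSPA1B, HSPA1A, HSPH1 and HSPB1, with differences of −0.61 to −0.31 log2. HSPA6 and HSPB8, which are also heat-inducible, were equal on all arrays. HSPBAP1 and the mitochondrial HSPA9 were higher, by 0.36 and 0.18 log2. The count was 9 members lower, 3 higher and 9 tied out of 21, beside 23.2% lower and 23.9% higher over all genes. With median centring the ties counted as higher, giving 12 members higher and 9 lower, beside 77.8% higher and 22.2% lower over all genes. At least 1.5-fold different in either direction was 1 member, HSPA1B, which was lower, against 2.71% of all genes, among which 111 of 8868 were lower and 129 were higher. At 0.32 log2 3 members were lower, against 4.24% of all genes, and 1 was higher, against 4.68%. At 2-fold 0 members were lower, against 0.259%, and 0 were higher, against 0.304%. The median of the members was 0.00 log2, the same as that of all genes, because ties fill the middle of both. Their mean was −0.078 log2, against 0.0026 over all genes.

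HSPA1A and HSPA1B encode the major stress-inducible HSP70 and sit side by side on chromosome 6. HSPA1B stood at 9.53 log2 in the control, 9.50 with CFX and 8.92 with Mt-CFX. Its Mt-CFX value was apart from the other arrays, 1.52-fold below the control, a difference of −0.61 log2 that put it at rank 97 from the lowest of the 8868 genes. HSPA1A stood at 9.09 in the control, 9.08 with CFX and 8.52 with Mt-CFX. The pattern was the same, with Mt-CFX 1.48-fold below the control, a difference of −0.57 log2 at rank 123 from the lowest. The genes are near-identical, so their probes may read the same transcripts and they are not independent observations. Taken as 1 gene, they still made 1 of 20 members at 1.5-fold.

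Each of these genes had 5 named probe sets, and all 10 were lower with Mt-CFX than in the control. Over the probe sets of HSPA1A the difference ran from −0.65 to −0.57 log2, and 3 of the 5 gave exactly the same values on all arrays, so only 3 distinct readings exist. Over those of HSPA1B it ran from −0.70 to −0.54, and no probe sets had the same values on all 3 arrays. A pair of them was equal with CFX (8.82) and with Mt-CFX (8.17) and differed in the control alone (8.87 and 8.85). The 5 probe sets of HSPA1B are thus not 5 separate readings. At least 1.5-fold lower were 1 of the 5 probe sets of HSPA1A and 4 of the 5 of HSPA1B, so the count at this size turns on small steps around it. HSPA1L, a relative best known from the testis, also had 5 probe sets, and each had equal values on all arrays, at 4.37 to 4.60 log2. Among these 5 only 3 readings were distinct. The divergent neighbours HSPA1A and HSPA1L, which share most of the promoter stretch described above, thus did not have the same pattern. The probe set used for HSPA1L lay only 0.70 log2 above the floor, however, and whether a difference could show at that signal was not tested.

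**Figure D2:**
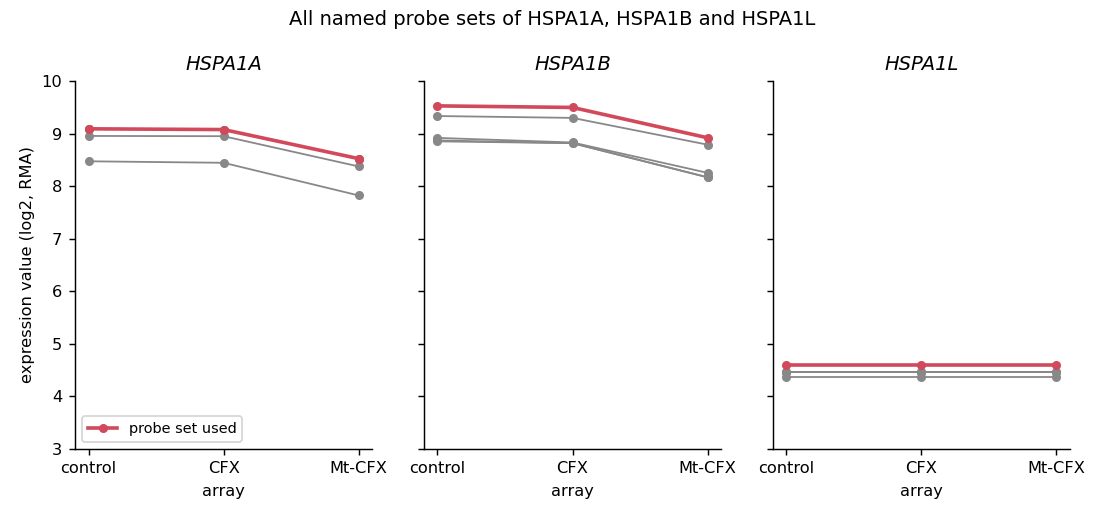
Expression values (log2, RMA) of each named probe set of HSPA1A, HSPA1B and HSPA1L on the 3 arrays, 1 line per probe set, with lines of equal value on top of each other and the probe set used in red. All lines of HSPA1A and HSPA1B drop from CFX to Mt-CFX, with differences of −0.65 to −0.51 log2, and all lines of HSPA1L are flat.

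The nucleotide exchange relatives of HSP70 were HSPH1, HSPA4 and HSPA4L. HSPH1, the inducible HSP110 that also dissolves aggregates together with HSP70, stood at 9.39 in the control, 9.44 with CFX and 9.07 with Mt-CFX. Its Mt-CFX value was the lowest of the 3, with a difference from the control of −0.33 log2 at rank 370 from the lowest. This was just past the size of 0.32, and with median centring of the arrays it was −0.31, which left 2 members lower at that size. HSPA4 stood at 8.69, 8.77 and 8.59 on the control, CFX and Mt-CFX arrays, and HSPA4L at 7.70, 7.81 and 7.72. With Mt-CFX HSPA4 differed from the control by −0.11 log2 and HSPA4L by 0.02, so the 3 relatives did not have one pattern.

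Among the remaining HSP70 genes HSPA9, the mitochondrial HSP70 that drives protein import and helps to assemble iron-sulfur clusters, went the other way. It stood at 10.75 log2 in the control, 10.87 with CFX and 10.94 with Mt-CFX, with differences from the control of 0.11 and 0.18 log2. Its partner in the matrix, the chaperonin HSPD1, stood at 8.78 in the control, 8.80 with CFX and 8.78 with Mt-CFX. Of the 2 mitochondrial members 0 were lower with Mt-CFX than in the control, beside 23.2% over all genes, and 2 genes are too few to read a share from. The 19 members of the cytosol, nucleus and other sites held all 9 that were lower with Mt-CFX and 2 of the 3 that were higher. These counts stand beside 23.2% lower and 23.9% higher over all genes, and the difference between compartments was not tested.

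HSPA14, an HSP70 bound to ribosomes, stood at 6.00 in the control, 6.17 with CFX and 5.97 with Mt-CFX. HSPA2, known for its role in spermatogenesis, stood at 5.61, 5.66 and 5.55 on the same arrays. Both had their highest value with CFX and their lowest with Mt-CFX. HSPA12A and HSPA12B are distant members of the family. HSPA12A was equal on all arrays at 5.02, and HSPA12B differed by −0.02 log2 with Mt-CFX. HSPA6, which is silent in most unstressed human cells and strongly induced by heat, was equal on all arrays at 3.98, only 0.09 log2 above the floor. Its pseudogene HSPA7, no member by the rule, lay below the floor at 3.53 in the control and with Mt-CFX and at 3.13 with CFX.

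Of the 12 HSP70 and HSP110 genes 7 were lower with Mt-CFX than in the control, 2 were higher and 3 were equal, beside 23.2% lower and 23.9% higher over all genes. Their median was −0.026 log2, and it was −0.085 over the 8 of them that lay above a floor at the 75th percentile of all probe sets. Among small heat shock genes HSPB1 (HSP27), an abundant holding chaperone that also guards actin filaments, stood at 9.95 in the control, 9.90 with CFX and 9.64 with Mt-CFX. The Mt-CFX array was 1.24-fold below the control, a difference of −0.31 log2 at rank 412 from the lowest. HSPB8, which works with BAG3 in the selective autophagy of misfolded proteins, was equal on all arrays at 4.02, which is 0.13 log2 above the floor. HSPB3, a muscle form, was equal on all arrays at 2.59 and is the 1 member below the floor.

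BAG proteins bind the ATPase domain of HSP70 and help it to release nucleotide. BAG3, the member of the family that HSF1 induces and the partner of HSPB8, stood at 6.59 in the control, 6.59 with CFX and 6.41 with Mt-CFX, a difference of −0.18 log2 from the control. BAG2, an inhibitor of the ubiquitin ligase CHIP, stood at 7.39 in the control, 7.40 with CFX and 7.39 with Mt-CFX. BAG1, BAG4 and BAG5 were equal on all arrays, at 5.60, 5.66 and 6.21. Of the 5 BAG genes 1 was lower with Mt-CFX than in the control and 0 were higher, beside 23.2% lower and 23.9% higher over all genes, so the share of lower genes was near that of all genes.

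HSPBAP1 stood at 6.10 in the control, 6.27 with CFX and 6.46 with Mt-CFX, so that its values were in the order opposite to those of HSPB1, the protein its product binds. With Mt-CFX it was 1.29-fold above the control, a difference of 0.36 log2 at rank 352 from the highest of all genes.

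**Figure D3:**
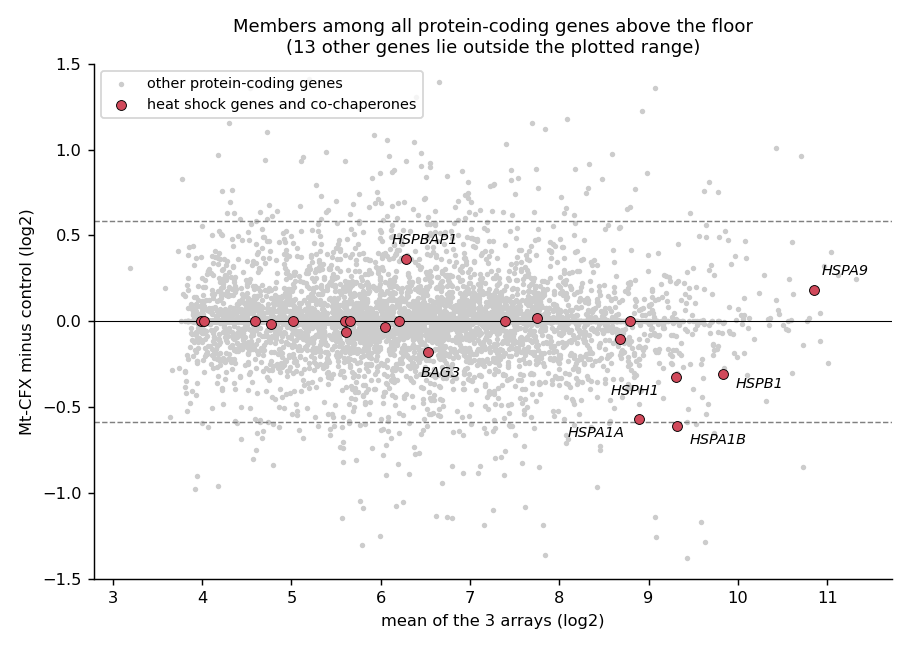
Difference between Mt-CFX and control (log2) against the mean of the 3 arrays (log2), with 1 point per protein-coding gene above the floor; members are in red and the dashed lines mark 1.5-fold. HSPA1B lies past the lower line and HSPA1A just short of it, and 13 other genes lie beyond the plotted range of 1.5 log2.

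With CFX the members differed little from the control. The count was 9 members higher, 4 lower and 8 tied out of 21, beside 25.8% higher and 15% lower over all genes. At 1.5-fold in either direction 0 members differed, against 0.147% of all genes. At 0.32 log2 0 members were higher, against 0.97%, and 0 were lower, against 0.733%, and at 2-fold 0 were higher, against 0.0226%. The differences ran from −0.05 log2 for HSPB1 to 0.17 for HSPBAP1 and HSPA14, with a median of 0.00. HSPA1A differed by −0.01 and HSPA1B by −0.03, so the inducible HSP70 genes were within 1.02-fold of the control. The higher members also included HSPA9 at 0.11, HSPA4L at 0.11, HSPA4 at 0.08, HSPA2 at 0.05 and HSPH1 at 0.05. Higher with CFX than on both other arrays were 7 of the 21 members, against 12.6% of all genes, namely HSPA14, HSPA2, HSPA4, HSPA4L, HSPD1, HSPH1 and BAG2. With median centring of the arrays HSPD1 and BAG2 no longer had this order, which left 5 of 21, against 10.1% of all genes.

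At the same dose and time Mt-CFX gave lower values than CFX for 12 of the 21 members, higher values for 2 and equal values for 7, and over all genes 25.2% were lower and 20.1% were higher. With median centring, which gives every tie the sign of the shift, 12 members were higher and 9 lower, beside 77.7% and 22.3% of all genes. At 1.5-fold in either direction 0 members differed, against 2.15% of all genes. At 0.32 log2 3 members were lower, against 4.16% of all genes, and 0 were higher, against 3.44%. At 2-fold 0 members were lower, against 0.124%, and 0 were higher, against 0.259%. HSPA1B differed between the compounds by −0.58 log2, or 1.49-fold, HSPA1A by −0.55, HSPH1 by −0.37 and HSPB1 by −0.26. HSPA14 followed at −0.21, HSPA4 at −0.19 and BAG3 at −0.18. Of the 12, BAG2, HSPD1 and HSPA12B differed by −0.02 or −0.01 log2, and their sign changed with median centring. The members with higher values for Mt-CFX were HSPBAP1 at 0.19 and HSPA9 at 0.07. The median of the HSP70 and HSP110 genes was −0.11 log2, where 8 of 12 were lower and 1 was higher, and it was −0.20 over the 8 above a floor at the 75th percentile. This comparison is the difference of the other 2, which share the control array, so the 3 are not separate observations. With 1 array per compound no interval of these differences can be given, and members with like values cannot be said to respond alike.

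**Figure D4:**
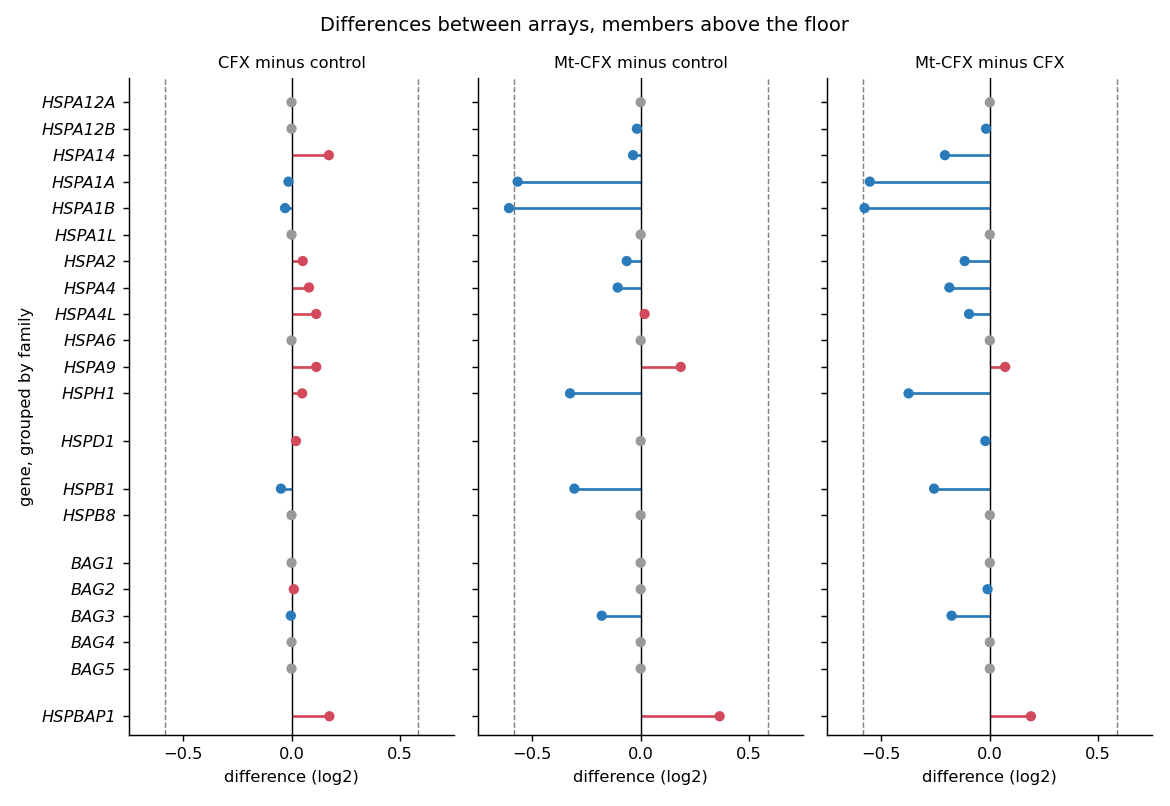
Differences between arrays (log2) of the 21 members above the floor in the 3 comparisons, grouped by family, in red where above 0, in blue where below and in grey where equal; dashed lines mark 1.5-fold. The bars with CFX against control are short in all families, whereas HSPA1A, HSPA1B, HSPH1 and HSPB1 point left in both panels with Mt-CFX.

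Lower with Mt-CFX than on both other arrays were 9 of the 21 members, against 18.7% of all genes. These were HSPA1A, HSPA1B, HSPH1, HSPB1, BAG3, HSPA4, HSPA2, HSPA14 and HSPA12B, and the last differed from both by only 0.02 log2 and left the count with median centring, giving 8 of 21 against 17.2%. Higher with Mt-CFX than on both other arrays were HSPA9 and HSPBAP1, 2 of 21, against 16.4% of all genes. With median centring, which gives every tie the sign of the shift, this became 11 of 21, against 72.7% of all genes. The 7 members that were equal on all arrays had a mean signal of 3.98 to 6.21 log2, and the other 14 had one of 4.77 to 10.85. Over all genes the median signal was 5.38 for equal genes and 6.30 for the others, so equal genes had the lower median signal. Ties were not confined to low signal, since equal genes reached 9.79 log2. The part of ties in the counts of members was not tested.

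Partners of these chaperones were read from lists made by function, and those named below that differed by less than 1.5-fold were picked after their values were seen. The counts of each list stand beside 23.9% higher and 23.2% lower with Mt-CFX over all genes. Of the heat shock transcription factors, HSF1, their main activator, was equal on all arrays at 6.51 log2, as was HSF4 at 5.76. HSBP1, which encodes a small protein that binds HSF1, stood at 8.31 in the control and with CFX and at 8.22 with Mt-CFX. These are mRNA values, and HSF1 is regulated mainly as a protein, so they do not measure its activity.

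Co-chaperones of HSP90 and HSP70 under other symbols had a named probe set for 16 of 27 listed genes, and 15 lay above the floor. With Mt-CFX 4 of the 15 were higher than in the control, 2 were lower and 9 were equal, with a median of 0.00 log2. The widest difference was that of STIP1, the adaptor that passes clients from HSP70 to HSP90. STIP1 stood at 6.91 in the control and with CFX and at 6.56 with Mt-CFX, a difference of −0.35 log2. CHORDC1, PTGES3, TOMM34, NUDCD3, TSC1 and FLCN were equal on all arrays.

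Prefoldin and other partners of the cytosolic chaperonin had 12 of 13 listed genes above the floor, and with Mt-CFX 3 of them were above the control, 2 below it and 7 tied, again with a median of 0.00. PFDN2, a prefoldin subunit that delivers unfolded actin and tubulin to the chaperonin, stood at 9.37 in the control, 9.62 with CFX and 9.93 with Mt-CFX. PDCL3, a phosducin-like partner of the chaperonin, stood at 5.86, 5.89 and 5.37 on the same arrays. The pair differed from the control by 0.56 and −0.50 log2 with Mt-CFX, in opposite directions, while the prefoldin genes PFDN4 and PFDN6 were equal on all arrays.

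Of the J-proteins that carry other symbols, SEC63, which pulls polypeptides into the endoplasmic reticulum together with its HSP70, stood at 7.87 in the control, 8.01 with CFX and 8.13 with Mt-CFX. GAK was equal on all arrays at 5.66, and HSCB, a J-protein of iron-sulfur cluster assembly in mitochondria, stood at 5.52 in the control and 5.58 with Mt-CFX.

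Mitochondrial partners of HSPA9 and HSPD1 had a named probe set for 8 of 13 listed genes, all above the floor. With Mt-CFX 3 of the 8 were higher than in the control, 4 were lower and 1 was equal, with a median of −0.043 log2. TIMM44, which anchors HSPA9 at the import channel, stood at 7.01 in the control, 7.07 with CFX and 7.26 with Mt-CFX, a difference of 0.24 log2 in the same direction as HSPA9. TRAP1, the mitochondrial HSP90, stood at 8.29, 8.33 and 8.21 on the same arrays. The m-AAA protease genes SPG7 and AFG3L2 differed from the control by −0.30 and −0.26 with Mt-CFX.

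No member of the endoplasmic reticulum had a named probe set. Of the 11 partners there above the floor 4 were higher with Mt-CFX than in the control, 5 were lower and 2 were equal. The chaperone CALR stood at 11.07 in the control, 10.88 with CFX and 10.22 with Mt-CFX, XBP1 at 7.16, 7.23 and 7.99, and ERN1 at 5.17, 5.05 and 5.77. These 3 of the 11 genes passed 1.5-fold, against 2.71% of all genes, 1 downward and 2 upward.

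**Figure D5:**
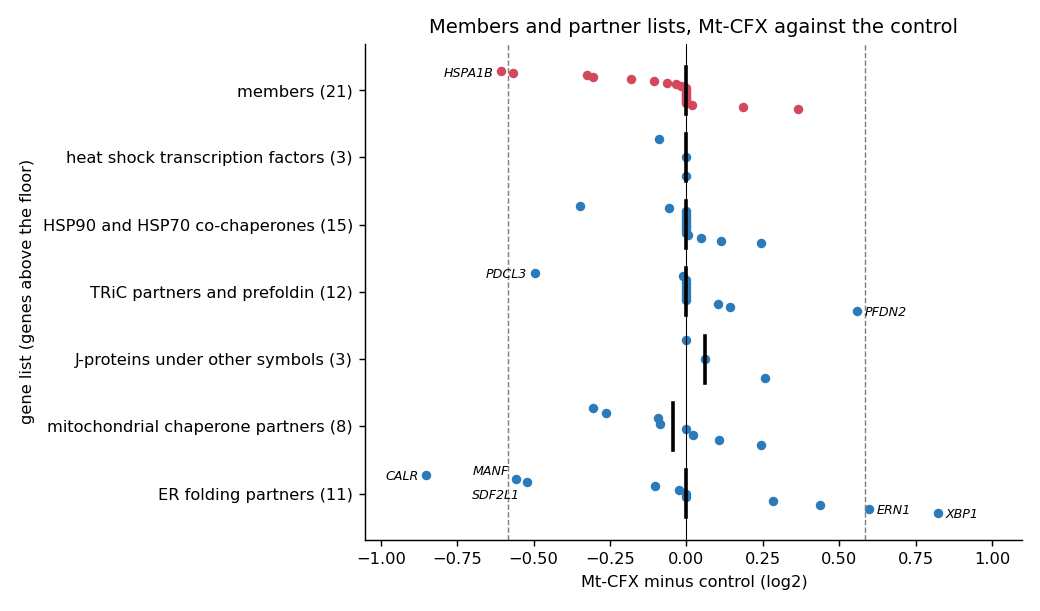
Difference between Mt-CFX and control (log2) of the members (red) and of the partner genes (blue), with 1 point per gene above the floor, points spread vertically by rank, the list median as a black bar and 1.5-fold as dashed lines. The medians of the members and of 4 of the 6 partner lists lie at 0.00, and CALR, XBP1 and ERN1 lie past the dashed lines.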

How the data were processed

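The authors deposited log2 expression values per probe set for 3 whole-transcript arrays, and the submitters' processing notes name RMA and Affymetrix Expression Console. Versions and genome build were not given in the sources used here. As background, RMA makes the distributions of the arrays alike, so differences in total RNA are not visible, and probe-level error was not used here. The deposited distributions were not identical. Medians were 3.91, 3.90 and 3.88 log2 on the control, CFX and Mt-CFX arrays, and sorted values differed by up to 0.24 log2. Gene names came from the platform annotation, with symbols from the RefSeq gene table by gene ID; 16098 of 53617 probe sets had 1 symbol. The number of arrays, 1 per group, limits the precision, and no test or p-value was computed. The plan was to name members that differed by 0.32 log2 or more, plus a preset list, but all 22 members are named here. Partner genes named were those past 1.5-fold, with others picked later. Members, lists and sizes were chosen with earlier results of these data known. Counting at the fold sizes was tested on simulated data without exact ties, so that test does not cover the ties seen here. Alternatives were other floors, averaged probe sets, lowess re-centring with a span of 0.3, median centring, other fold sizes, and HSPA1A with HSPA1B as 1 gene, added after the data were seen. Planned protein motif counts were not run. Python 3.11.15, numpy 2.4.6, pandas 2.3.3, statsmodels 0.14.6 and matplotlib 3.10.9 were used.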

Additional observations from a re-analysis of the deposited data

How the results depend on the processing

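No paired analysis was possible because each group was 1 array. Against the control, 1 member was at least 1.5-fold lower with Mt-CFX; this became 2 with averaged probe sets (HSPA1A at −0.59 and HSPA1B at −0.64 log2), 3 at 0.32 log2 and 0 at 2-fold, and the 0 members that were higher became 1 at 0.32 log2. Between the compounds the 0 members that were lower became 1 with averaged probe sets and 3 at 0.32 log2. The members' median for Mt-CFX minus CFX was −0.017 log2, and it moved to −0.11 with the floor at the 75th percentile (16 members) and to 0.0074 with median centring. Median centring moved every gene by 0.025 log2 or less and changed the sign of small differences only, of at most 0.020 log2. Lowess re-centring moved the members by at most 0.029. It moved no gene for Mt-CFX minus control, so it was no check of that comparison. Counts at any size depend on the centring, because a shift gives every tie its sign: CFX against the control had 9 members higher and 4 lower, which became 8 and 13 with median centring and 9 and 12 with lowess re-centring. Small family medians depend on the floor. The small heat shock genes had −0.15 log2 for Mt-CFX minus control and −0.13 for Mt-CFX minus CFX, which became 0 with no floor and −0.31 and −0.26 with the floor at the 75th percentile, and the cytosolic members moved from −0.017 to −0.15 for Mt-CFX minus CFX. A DMSO content stated for the control alone, single arrays and exact ties limit what small differences can show.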
